A study of Mus musculus with 12 samples.

Results

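The comparison described here is the deletion of AF10 on day 4 of reprogramming in DMSO, the solvent in which a drug was given to other samples of the study. Its members are 4 of the 12 samples of the study, chosen by their titles: the libraries Day4_creAF10_DMSO, replicates 1 and 2, set against the libraries Day4_fl_DMSO, replicates 1 and 2, and paired by replicate number. All cells were mouse embryonic fibroblasts (MEFs) of a conditional AF10 line with a transgene for the reprogramming factors Pou5f1, Sox2, Klf4 and Myc (OSKM) and the activator rtTA, which turns that transgene on with doxycycline. The Day4_fl_DMSO cells have floxed AF10 alleles and received an empty adenovirus, and the Day4_creAF10_DMSO cells have the genotype AF10 -/- after an adenovirus that carries Cre recombinase under the CMV promoter. Reprogramming was begun 2 days after infection with 2 µg/mL doxycycline in DMSO, and RNA was taken on day 4. The other samples are MEFs before reprogramming (MEF_fl and MEF_creAF10) and day 4 cells in 5 µM SGC0946, an inhibitor of the enzyme DOT1L (Day4_fl_SGC and Day4_creAF10_SGC), with 2 libraries in each group. No group without floxed alleles received Cre, so an effect of the Cre virus and of the loss of AF10 cannot be told apart. Day 4 cells grew on DR4 feeder MEFs, and the share of feeder RNA in the day 4 libraries was not measured. The labels name no clones or animals and do not say whether cells of several embryos were pooled.

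AF10, the product of Mllt10, is a cofactor of DOT1L, the methyltransferase that marks lysine 79 of histone H3 along the bodies of transcribed genes. AF10 binds DOT1L and is needed for the higher methylation states of that lysine. DOT1L is known as a barrier to the reprogramming of fibroblasts, a process in which the cells give up mesenchymal genes and take on epithelial ones before they become pluripotent.

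The target gene was lower in the AF10-deleted libraries but was not lost. Mllt10 stood at 61.4 and 55.3 CPM (counts scaled to the size of the library) in fl replicates 1 and 2 and at 44.2 and 41.8 CPM in AF10-deleted replicates 1 and 2. Both deleted libraries lay below both fl libraries, at 72.1% and 75.5% of the fl library of the same number. The log2 fold change was -0.44 ± 0.078 (SE, 2 libraries against 2; adjusted p = 0.001, edgeR quasi-likelihood test, Benjamini-Hochberg). The deposited values cover the whole gene, so reads of a transcript without the deleted part, of undeleted cells and of feeder cells cannot be told apart. In MEFs and under SGC0946 the same contrast gave -0.34 ± 0.082 and -0.42 ± 0.08 on the log2 scale, and the day 4 DMSO value differed from neither beyond its error (adjusted p of the difference 0.793 and 0.979, edgeR).

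The expected counts of the 4 libraries summed to 16834238 and 21109210 in fl and to 14645732 and 17292985 in AF10-deleted cells. Replicate numbers mark 2 sources of cells of different sex: summed over Uty, Kdm5d, Ddx3y and Eif2s3y, which lie on the Y chromosome, counts were 4035 to 4780 in replicate 1 libraries and 8 to 52 in replicate 2 libraries of all groups. The fit therefore holds the replicate number as a term within each stage. Its p-values set the change against a spread estimated from all 12 libraries and shared in part across genes. That spread had 4 residual and a median of 22.4 prior degrees of freedom, and it is not the spread between many animals. With labels exchanged within 2 pairs there are 4 arrangements, so a two-sided exact permutation test of one gene cannot go below p = 0.5.

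Of 13936 genes tested, 469 were called higher in AF10-deleted cells (3.37%) and 470 lower (3.37%), at an adjusted p under 0.05. Changes were small: the median log2 change was 0.45 among genes called higher and -0.32 among genes called lower, against a median of 0.003 over all genes. A change of more than 1.5-fold was reached by 143 genes called higher and 27 called lower, and one of more than 2-fold by 37 and 6. The change had the same sign in both replicate pairs for 468 of the 469 and for 469 of the 470. The 2 groups did not overlap in 387 of the genes called higher and 415 of those called lower, against 40.4% of all genes tested. The calls rest on a replicate term of its own for each stage: with one term shared by MEFs and day 4, 0 genes were called higher and 1 lower, and without the term 0 genes were called in either direction, the lowest adjusted p was 0.526, and 988 genes had an unadjusted p under 0.05, against 2943 in the fit with a term for each stage (edgeR). DESeq2 with the same pairing called 172 higher and 214 lower. Without fl replicate 2 the counts fell to 79 and 45, and without the other libraries in turn they were 181 to 282 and 134 to 308. Of the 40 genes with the lowest p, 20 in each direction, 36 stayed called in all 4 fits that left out 1 library.

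**Figure D1:**
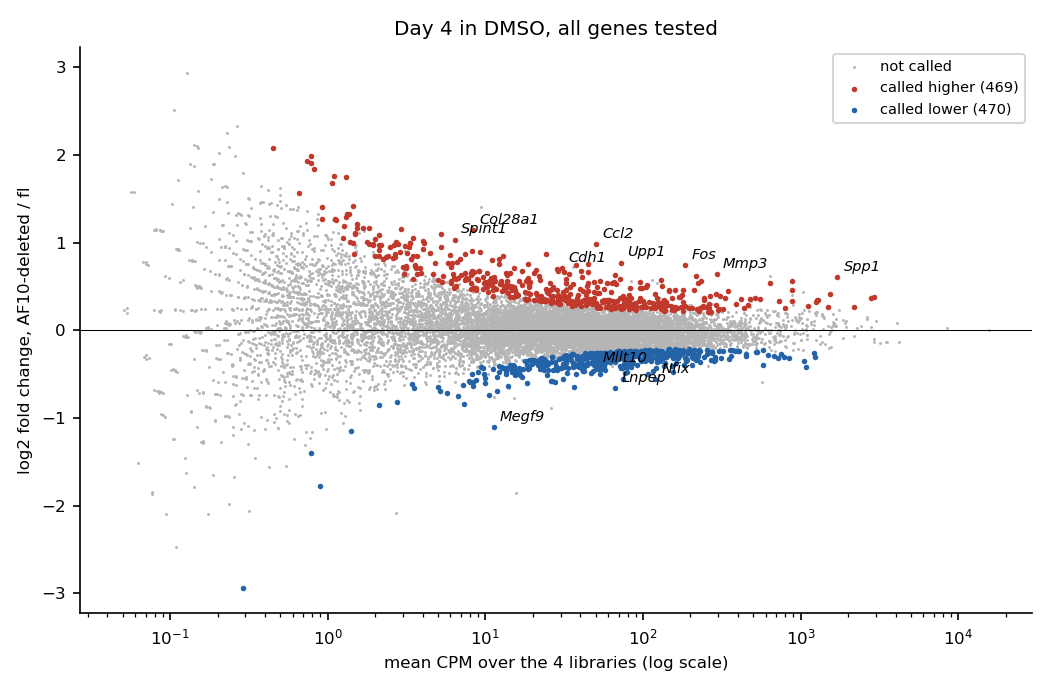
Each point is a gene, placed by its mean CPM over the 4 libraries (log scale) and its log2 fold change, AF10-deleted over fl, on day 4 in DMSO. The 469 genes called higher are red and the 470 called lower blue, 68 genes with a log2 change of at least 3 in size or a mean of at most 0.05 CPM lie outside the plot (2 of them called), and called changes are larger at low levels than at high ones.

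Among the other subunits of DOT1L complexes, levels differed little. Dot1l itself stood at 59.9 and 52.7 CPM in fl and 56.9 and 55.4 CPM in AF10-deleted cells (log2 0.00 ± 0.077), and Mllt6, which encodes the AF10 paralog AF17, at 83.7 and 78.7 and 88.5 and 84.6 CPM (log2 0.09 ± 0.07). Of the 10 genes listed for the complex, Mllt10, the deleted gene, and Tbl1x were called lower and none higher. Among all genes tested, 3.37% were called lower and 3.37% higher. DESeq2 with the same pairing called Mllt10 and did not call Tbl1x. Tbl1x, a WD40 repeat protein also found in corepressor complexes, fell from 89.7 and 103 to 83.5 and 79.7 CPM (log2 -0.24 ± 0.073, adjusted p = 0.0445, edgeR), and this call was lost without fl replicate 2 and without either AF10-deleted library. Of 20 genes of the super elongation and PAF complexes, which act on elongating RNA polymerase II, Ccnt1 was called lower (log2 -0.46 ± 0.12; not called without fl replicate 1, fl replicate 2 or AF10-deleted replicate 2), and none higher.

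Megf9, which encodes a membrane protein with EGF-like repeats, had the largest fall among called genes with a mean above 10 CPM. It stood at 12.2 and 18.7 CPM in fl replicates 1 and 2 and fell to 5.61 and 8.71 CPM in AF10-deleted replicates 1 and 2. Both deleted libraries lay below both fl libraries, although the 2 sources differed from each other in both groups. The log2 change was -1.11 ± 0.12 (adjusted p = 4.17e-06, edgeR). In SGC0946 the deletion gave 0.09 ± 0.13 and in MEFs -0.11 ± 0.096, and both differences from day 4 in DMSO passed the test (log2 -1.19 ± 0.18, adjusted p = 0.000731, and -1.002 ± 0.16, adjusted p = 0.000893, edgeR).

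The other falls with the lowest p included genes of membrane, adhesion and matrix proteins. Lnpep, an aminopeptidase of the endosomal vesicles that carry the insulin-responsive glucose transporter, fell from 68.8 and 94.3 to 47.8 and 55.1 CPM (log2 -0.66 ± 0.083, adjusted p = 2.07e-05, edgeR). Nrk, a Ste20-like kinase, fell from 33.7 and 56.0 to 25.1 and 31.8 CPM (log2 -0.64 ± 0.086). Odz4, a teneurin, fell from 85.8 and 91.6 to 61.1 and 60.2 CPM (log2 -0.55 ± 0.073), and its 2 groups lay well apart. Tes, a LIM protein of focal adhesions, fell from 34.5 and 32.1 to 21.2 and 22.8 CPM (log2 -0.59 ± 0.095). Abi3bp, a matrix protein, fell from 120.2 and 129.7 to 85.2 and 92.1 CPM and Hmcn1, a very large matrix protein, from 84.6 and 100.2 to 65.8 and 66.2 CPM. Clcn5, an endosomal chloride and proton exchanger, fell from 12.9 and 16.1 to 8.98 and 9.10 CPM (log2 -0.69 ± 0.12; not called without fl replicate 2). Nrp1, a coreceptor for semaphorins and VEGF, fell in each pair (log2 -0.41 ± 0.07) while its groups overlapped, because AF10-deleted replicate 2 (134 CPM) lay above fl replicate 1 (126 CPM); it was not called without fl replicate 2. Glg1, Hs6st2, Tln2, Cnot6l, Ankib1, Wipf1, Prune2, Trove2, Slc7a5 and Pcdh7 complete the lowest p on this side, with log2 changes from -0.60 to -0.40. Glg1 and Prune2 among them were not called without fl replicate 2. Rangrf also passed the test, but it had 8.94 CPM in fl replicate 2 and 0 in the other 3 libraries, so that call rests on 1 library.

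**Figure D2:**
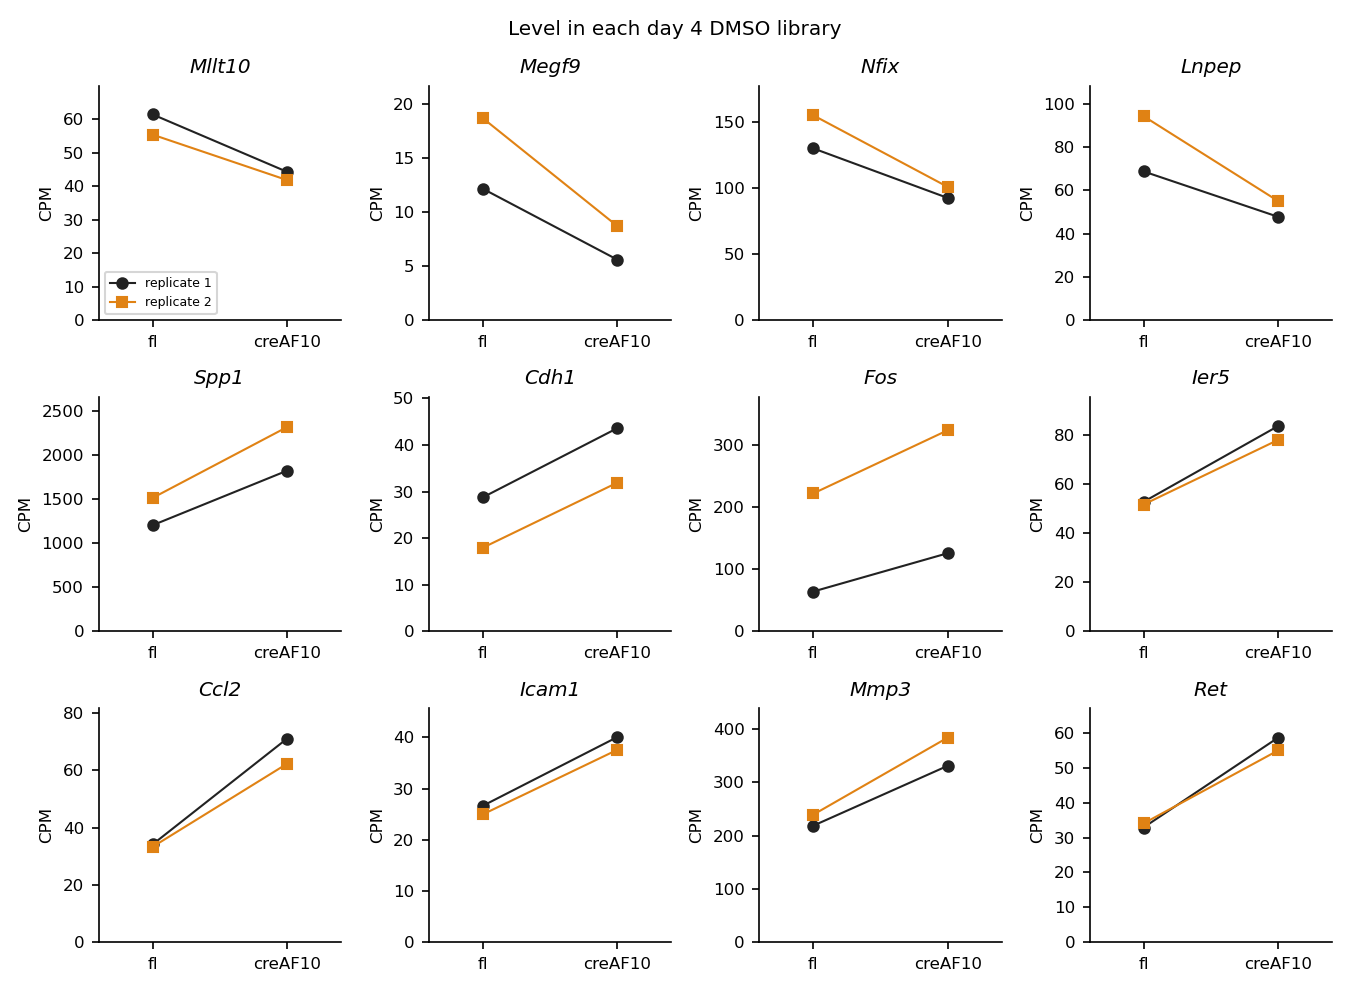
CPM of 12 genes in the 4 day 4 DMSO libraries, with a line joining the fl and the AF10-deleted library of the same replicate number. Mllt10, Megf9, Nfix and Lnpep fall in both pairs, and the other 8 genes rise in both, and Fos differs more between the replicate numbers than between the groups.

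Among 24 regulators of mesenchymal identity, 4 were called lower (against 3.37% of all genes), none higher, and 20 of the 24 changes were negative (against 49.2% of all genes; median log2 -0.109). Nfix, a nuclear factor I transcription factor, fell from 130.0 and 155 to 92.5 and 101 CPM (log2 -0.56 ± 0.073, adjusted p = 3.05e-05, edgeR) and was called without any 1 library. Its relatives Nfia, Nfib and Nfic had log2 changes of 0.04, -0.06 and -0.10, none called. Runx2, the regulator of osteoblasts, fell from 39.4 and 42.3 to 28.5 and 34.4 CPM (log2 -0.38 ± 0.09), Osr1 from 35.2 and 30.5 to 26.6 and 21.4 CPM (log2 -0.45 ± 0.096), and Tbx15 from 244 and 241 to 200.4 and 201 CPM (log2 -0.27 ± 0.064). Runx2 was not called with the offset for transcript length described below. In the list 1 or 2 of the 24 genes stayed called when any 1 library was left out. The classical repressors of epithelial genes were not called, with log2 changes of -0.06 for Snai1, -0.17 for Snai2, -0.12 for Zeb1, -0.11 for Zeb2 and 0.13 for Twist1. Of 32 genes of fibroblast identity and matrix, 3 were called lower (Fbln2, Postn and Cdh11) and 1 higher, S100a4, which rose from 411 and 633 to 686 and 818 CPM (log2 0.54 ± 0.09). None of the 3 falls was called with that offset. The summed level of those 32 genes was 32070 and 31590 CPM in fl and 30370 and 30530 CPM in AF10-deleted cells. In bulk RNA, fewer cells of a type and less RNA per cell cannot be told apart.

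Of the 4 factors that drive reprogramming, 3 were called lower (against 3.37% of all genes), and DESeq2 with the same pairing called 2, without Sox2. Pou5f1 fell from 127 and 140.5 CPM in fl to 106 and 89.6 CPM in AF10-deleted cells (log2 -0.46 ± 0.087, adjusted p = 0.00288, edgeR). Klf4 fell from 198 and 215 to 164 and 167 CPM (log2 -0.32 ± 0.07) and Sox2 from 113 and 102 to 83.3 and 96.1 CPM (log2 -0.26 ± 0.076). In each of these 3 genes the 2 groups did not overlap, which held for 40.4% of all genes tested. The call was lost without fl replicate 2 or AF10-deleted replicate 2 for Pou5f1, without fl replicate 2 or AF10-deleted replicate 1 for Klf4, and without replicate 1 of either group for Sox2. Myc, at 344 and 311 and 318 and 289 CPM, was not called (log2 -0.11 ± 0.066). In SGC0946 the deletion gave a positive change in 0 of the 4 factors (median log2 -0.20), and none was called. Reads of the transgene and of the cells' own genes are not told apart in these values. Of 24 genes of the pluripotency network, 11 passed the filter on low counts and 1, Klf2, was called higher, from 3.91 and 4.63 to 5.88 and 6.70 CPM (log2 0.55 ± 0.17), a call lost whenever 1 library was left out. Nanog, a core pluripotency factor, had under 2 CPM in all 4 libraries and 0 in 1 AF10-deleted library.

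Of the epithelial genes, 4 rose. E-cadherin, the adhesion molecule of epithelial cells encoded by Cdh1, stood at 28.8 and 17.97 CPM in fl replicates 1 and 2 and rose to 43.6 and 31.9 CPM in AF10-deleted replicates 1 and 2. Both deleted libraries lay above both fl libraries (log2 0.71 ± 0.11, adjusted p = 0.000332, edgeR). Without fl replicate 2, which had the lowest value, the log2 change was 0.51 and was not called. Spint1, a membrane inhibitor of serine proteases, rose from 4.37 and 4.03 to 8.58 and 8.60 CPM (log2 1.03 ± 0.17) and was called without any 1 library. Its relative Spint2 rose from 13.7 and 10.5 to 17.3 and 16.8 CPM (log2 0.51 ± 0.12), and the tight junction gene Cldn3 from 3.10 and 1.38 to 5.61 and 3.18 CPM (log2 0.995 ± 0.22). Neither was called without fl replicate 2, nor Spint2 without AF10-deleted replicate 2, nor Cldn3 without AF10-deleted replicate 1. These 4 were the called members among the 16 of 24 epithelial genes that passed the filter, of which 12 had a positive change (median log2 0.53). Over all genes tested 3.37% were called higher and 50.8% had a positive change. DESeq2 with the same pairing called 1 of the 16 epithelial genes, Cdh1, and gave no adjusted p for Spint1 and Cldn3. Not called were Epcam (log2 0.94 ± 0.41), Krt8 (0.43 ± 0.26) and Krt18 (1.04 ± 0.35), all under 3 CPM, nor Dsp, a desmosome protein, at 36.6 and 73.0 and 36.3 and 65.3 CPM. Without fl replicate 2, 1 of the 16 was called, and without the others in turn 3 or 4 were. Trp63, a gene of the basal epidermal layer, also rose, from 20.2 and 20.3 to 27.2 and 29.0 CPM (log2 0.48 ± 0.10; not called without fl replicate 2 or AF10-deleted replicate 1).

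**Figure D3:**
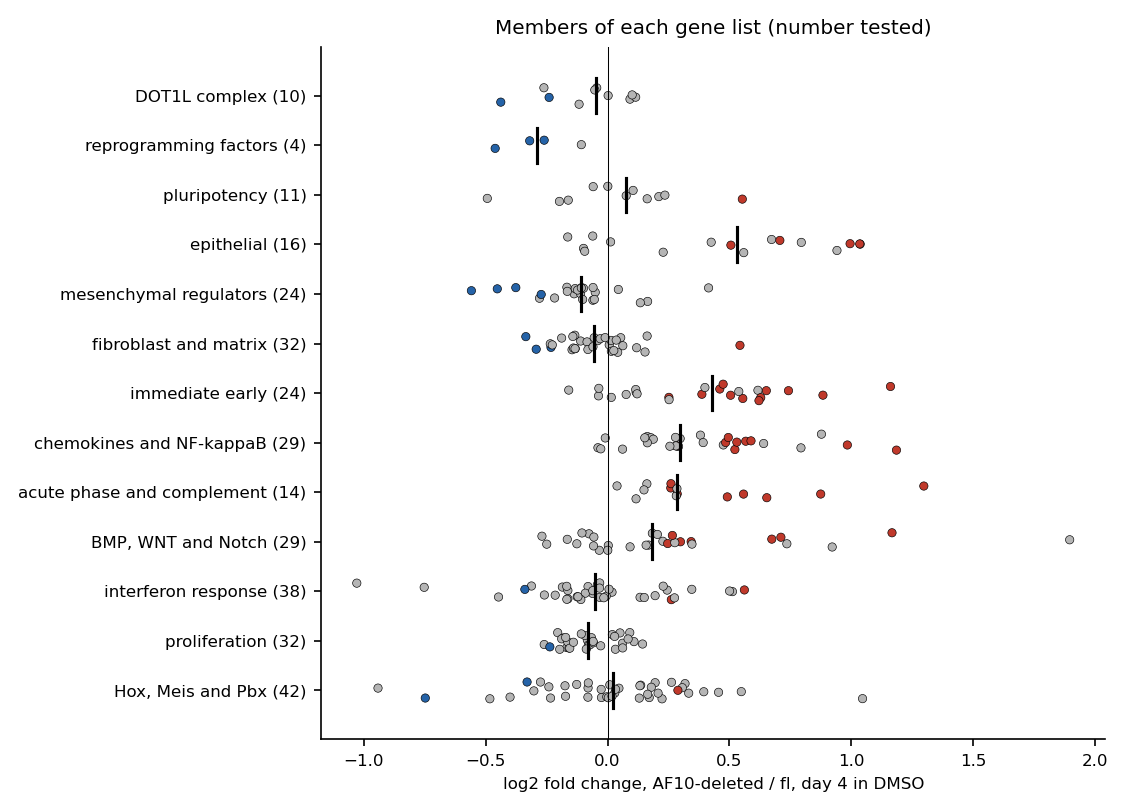
Each point is a gene of the list named at the left, placed by its log2 fold change, AF10-deleted over fl, on day 4 in DMSO, with genes called higher in red, called lower in blue and not called in grey, and with the list's median as a bar. The immediate early, chemokine, acute phase and epithelial lists lie mostly to the right of 0, and the mesenchymal regulators mostly to the left.

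Immediate early genes, which cells transcribe within minutes of growth factors, serum or stress, were the list with the most calls in number. As a share of those tested, the reprogramming factors (3 of 4 lower) and the acute phase list below (8 of 14 higher) held more. Of 24 immediate early genes tested, 12 were called higher (against 3.37% of all genes) and none lower. In this list 21 changes were positive, and the median log2 change was 0.43. Fos, a subunit of the AP-1 factor, stood at 64.3 and 222 CPM in fl replicates 1 and 2 and at 126 and 325 CPM in AF10-deleted replicates 1 and 2. It rose in each pair (log2 0.74 ± 0.086, adjusted p = 1.22e-05, edgeR), but replicate 2 of fl lay above replicate 1 of the deleted cells, so the groups overlapped. The same order was seen for its partner Junb, at 116 and 229.9 and 187 and 338 CPM (log2 0.62 ± 0.087), for the orphan nuclear receptor gene Nr4a1, at 67.9 and 148 and 90.6 and 220.4 CPM (log2 0.50 ± 0.081), and for the neuronal immediate early gene Arc, at 5.00 and 26.8 and 8.52 and 41.1 CPM (log2 0.65 ± 0.11; not called without AF10-deleted replicate 2). Ier5 was alike in the 2 sources: it stood at 52.9 and 51.8 CPM in fl and rose to 83.8 and 78.1 CPM (log2 0.63 ± 0.078, adjusted p = 1.6e-05). Atf3, a stress-induced repressor, rose from 3.10 and 3.21 to 4.09 and 7.48 CPM (log2 0.88 ± 0.18) and Ier3 from 42.9 and 51.9 to 61.5 and 69.9 CPM (log2 0.47 ± 0.084). Btg2, an antiproliferative gene, rose from 133 and 217 to 177 and 309 CPM (log2 0.46 ± 0.077; not called without fl replicate 2). Egr2, Egr3, Ier2 and Jund were the other called members. Egr1 was not called (adjusted p = 0.107) and its pairs differed: it went from 259 to 508 CPM in replicate 1 and from 801 to 971 CPM in replicate 2. Jun, Fosl1 and Klf10 had log2 changes of 0.02, -0.04 and -0.04, none called. When 1 library was left out, 7 to 9 of the 24 stayed called. Of 21 genes of ERK feedback, 2 were called higher and 2 lower. The phosphatase gene Dusp1, which is induced together with immediate early genes, rose from 61.2 and 113 to 84.8 and 167 CPM (log2 0.52 ± 0.068, adjusted p = 3.44e-05).

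Of the chemokine, cytokine and NF-kappaB response genes, 9 rose. Ccl2, which attracts monocytes, stood at 34.1 and 33.3 CPM in fl and rose to 71.0 and 62.3 CPM (log2 0.98 ± 0.10, adjusted p = 1.46e-05, edgeR), with a wide gap between the groups. The related Ccl7 rose from 51.5 and 59.7 to 79.9 and 79.4 CPM (log2 0.52 ± 0.082), and the neutrophil chemokine gene Cxcl1 from 42.3 and 43.3 to 67.9 and 59.3 CPM (log2 0.57 ± 0.10; not called without fl replicate 2). Icam1, an adhesion molecule for leukocytes, rose from 26.7 and 24.98 to 40.1 and 37.6 CPM (log2 0.59 ± 0.084, adjusted p = 8.93e-05). Of the inhibitors that NF-kappaB itself induces, Nfkbia rose from 71.7 and 66.7 to 91.6 and 102 CPM (log2 0.48 ± 0.072; not called without fl replicate 2), and Tnfaip3 from 8.56 and 8.53 to 13.8 and 11.1 CPM (log2 0.53 ± 0.13). The cytokine genes Il6 (from 0.919 and 0.642 to 1.91 and 1.62 CPM) and Csf1 (from 191 and 243 to 229.8 and 298 CPM) and the inducible inhibitor gene Nfkbiz were the other called members. The 9 called higher were of 29 tested, none was called lower, against 3.37% of all genes in either direction, 26 changes were positive, and the median log2 change was 0.30. The subunit genes Nfkb1, Nfkb2 and Relb had log2 changes of -0.04, 0.06 and 0.15, none called. When 1 library was left out, 3 (without fl replicate 2) to 8 of the 29 stayed called.

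Promoter sequences of called members are shown here because members of a list named for one factor can be read for that factor's site. The sequences are the 250 bases before the first listed start in RefSeq, build GRCm38.p6, 5′ to 3′ on the strand of the gene. For Il6, Csf1 and Tnfaip3 the choice to name them was made after their values were seen. Capitals mark a match to the kappaB site on either strand.
Cxcl1 (chr5:90890995-90891244, + strand): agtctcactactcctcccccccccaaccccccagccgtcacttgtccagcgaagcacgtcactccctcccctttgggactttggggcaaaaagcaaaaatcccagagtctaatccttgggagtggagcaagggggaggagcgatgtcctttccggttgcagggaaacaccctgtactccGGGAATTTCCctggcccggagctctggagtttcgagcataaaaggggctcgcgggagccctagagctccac
Il6 (chr5:30012864-30013113, + strand): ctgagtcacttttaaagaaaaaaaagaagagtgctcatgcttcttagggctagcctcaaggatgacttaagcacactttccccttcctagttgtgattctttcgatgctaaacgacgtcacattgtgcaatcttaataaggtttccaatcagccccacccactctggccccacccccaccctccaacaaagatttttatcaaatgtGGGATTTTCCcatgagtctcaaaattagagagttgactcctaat
Csf1 (chr3:107760470-107760719, - strand): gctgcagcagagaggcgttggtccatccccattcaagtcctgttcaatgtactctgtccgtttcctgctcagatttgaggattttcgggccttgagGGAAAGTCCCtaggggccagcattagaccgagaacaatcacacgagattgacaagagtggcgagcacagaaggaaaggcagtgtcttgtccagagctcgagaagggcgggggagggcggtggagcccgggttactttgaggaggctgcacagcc
Tnfaip3 (chr10:19015411-19015660, - strand): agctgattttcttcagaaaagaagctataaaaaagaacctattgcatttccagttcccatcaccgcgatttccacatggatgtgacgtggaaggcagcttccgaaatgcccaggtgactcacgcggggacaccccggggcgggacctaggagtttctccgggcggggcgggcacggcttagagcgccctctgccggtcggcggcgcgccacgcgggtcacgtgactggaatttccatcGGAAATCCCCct
Nfkbia (chr12:55492648-55492897, - strand): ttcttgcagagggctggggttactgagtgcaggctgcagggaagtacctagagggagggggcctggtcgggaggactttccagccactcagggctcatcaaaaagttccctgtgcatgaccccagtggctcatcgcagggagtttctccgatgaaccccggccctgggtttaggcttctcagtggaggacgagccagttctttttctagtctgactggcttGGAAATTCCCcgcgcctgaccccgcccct
The matches start 71, 44, 154, 12 and 29 bases before the start of Cxcl1, Il6, Csf1, Tnfaip3 and Nfkbia. Of the 9 called members, 6 had a promoter in the table and 5 of these held a kappaB match, with Icam1 the one that did not. Of all 20 list members tested that had a promoter, 10 held one (50%). The list was chosen in part as NF-kappaB response genes, so this share is not independent of that choice. Among all genes tested the share was 588 of 9870 (5.96%), among genes called higher 27 of 315 (8.57%), and among genes called lower 21 of 346 (6.07%). The match is a description of these letters, not of binding.

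The same windows were read for the sites of AP-1 (TGANTCA) and CREB (the CRE, TGACGTCA), on both strands. AP-1 letters stood in 24 of the 315 promoters of genes called higher (7.62%), 12 of 346 of genes called lower (3.47%) and 449 of 9870 of all genes tested (4.55%). CRE letters stood in 3.49%, 1.73% and 2.72% of the same sets. Of 9 called immediate early genes with a promoter, 1 held a CRE, Btg2, and 0 held an AP-1 site or a CArG box in this window. The E-box CAGGTG was found in 17.1% of the higher set, 9.25% of the lower set and 15.1% of all tested, and the GC box GGGCGG in 54.9%, 71.1% and 58.8%. The CCAAT box stood in 31.7%, 37.3% and 36.4% and TATAAA in 8.25%, 6.07% and 6.62%. A match for each of the first 2 sites is shown in capitals in Btg2 (CRE) and in Mmp3 (AP-1), the gene of stromelysin, one of the 20 rises with the lowest p.
Btg2 (chr1:134079156-134079405, - strand): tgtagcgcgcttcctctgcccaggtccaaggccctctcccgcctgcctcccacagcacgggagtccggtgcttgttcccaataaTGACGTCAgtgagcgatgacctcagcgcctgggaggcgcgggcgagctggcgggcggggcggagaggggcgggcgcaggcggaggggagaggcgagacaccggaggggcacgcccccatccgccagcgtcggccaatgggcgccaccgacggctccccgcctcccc
Mmp3 (chr9:7445572-7445821, + strand): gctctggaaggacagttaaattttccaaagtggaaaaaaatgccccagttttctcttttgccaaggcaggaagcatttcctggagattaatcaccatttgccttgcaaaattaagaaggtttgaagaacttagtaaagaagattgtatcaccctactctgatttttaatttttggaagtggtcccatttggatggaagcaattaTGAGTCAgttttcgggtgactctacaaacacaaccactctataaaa

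Genes of secreted acute phase and complement proteins moved the same way. Of 14 tested, 8 were called higher (against 3.37% of all genes) and none lower. All 14 had a positive change (against 50.8% of all genes), with a median log2 of 0.28. DESeq2 with the same pairing called 3 of the 14 higher. Lcn2, lipocalin of the innate response, rose from 4.71 and 5.78 to 9.51 and 9.77 CPM (log2 0.87 ± 0.15, adjusted p = 0.000598, edgeR). Ptx3, a long pentraxin, rose from 85.8 and 87.8 to 127 and 117 CPM (log2 0.49 ± 0.071). Both were called without any 1 library. Saa3, Hp, C1s, Serpina3g and Serpina3n were among the other called members, and without fl replicate 2 the count was 2 of 14. Lbp, which binds lipopolysaccharide, and Cp, ceruloplasmin, are not in the list and stood among the lowest p: Lbp rose from 26.4 and 26.2 to 43.4 and 39.1 CPM (log2 0.65 ± 0.09) and Cp from 19.3 and 24.1 to 30.2 and 40.5 CPM (log2 0.70 ± 0.087).

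Among proteases, Mmp3 rose from 219 and 239 to 331 and 384 CPM (log2 0.64 ± 0.077, adjusted p = 1.21e-05, edgeR) and Plau, the urokinase gene, rose in each pair, at 16.4 and 27.7 CPM in fl and 24.2 and 46.6 CPM in AF10-deleted cells (log2 0.67 ± 0.099). Timp2, an inhibitor of matrix metalloproteinases, fell from 797 and 939.5 to 645 and 759 CPM (log2 -0.31 ± 0.07; not called without fl replicate 2 or AF10-deleted replicate 1). These 3 were the called members of 20, where 3.37% of all genes tested were called higher and 3.37% lower. Spp1, the secreted phosphoprotein osteopontin, stood at 1202 and 1510.5 CPM in fl replicates 1 and 2 and at 1819.6 and 2313 CPM in AF10-deleted replicates 1 and 2. The groups did not overlap (log2 0.61 ± 0.071, adjusted p = 1.11e-05), and the value stayed between 0.58 and 0.62 when any 1 library was left out.

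The rises with the lowest p also held genes of mixed function. Upp1, uridine phosphorylase, had the lowest p of these: it went from 76.5 to 125 CPM in replicate 1 and from 31.4 to 56.5 CPM in replicate 2 (log2 0.77 ± 0.075, adjusted p = 7.52e-07, edgeR), so that its groups overlapped while each pair rose. Aox3, an aldehyde oxidase, rose from 16.6 and 17.6 to 30.2 and 32.2 CPM (log2 0.87 ± 0.092). Ret, the receptor tyrosine kinase of GDNF ligands, rose from 32.9 and 34.0 to 58.6 and 54.9 CPM (log2 0.76 ± 0.089), with no overlap. Col28a1, a collagen gene, rose from 5.17 and 5.27 to 12.1 and 11.1 CPM (log2 1.14 ± 0.14), the largest change among the 20 rises with the lowest p. Angptl7, a secreted angiopoietin-like protein, rose from 98.8 and 109.9 to 143 and 167 CPM (log2 0.57 ± 0.069). Wnt16, Htra3, Efs, Atp1b2, Nrbp2 and Rgs3 had log2 changes between 0.46 and 0.85 and were called without any 1 library. The largest called changes by size had few reads: Cdh8, Pax8, Npvf, Ecel1 and Dnaic1 had log2 changes of 1.84 to 2.08 at levels under 2 CPM, Cdh8 was high in 1 AF10-deleted library alone, and Dock8, C1rb, Adh1 and Emr1 had changes of -2.94 to -1.14 at levels under 3 CPM. None of these 9 was called in more than 2 of the 4 fits without 1 library.

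Of 29 genes of BMP, WNT and Notch signalling, 7 were called higher (against 3.37% of all genes) and none lower (median log2 0.18). DESeq2 with the same pairing called 3 of the 29 higher. Hes1, the Notch target, rose from 12.8 and 13.4 to 19.9 and 21.9 CPM (log2 0.67 ± 0.11, adjusted p = 0.000384, edgeR) and was called without any 1 library. Tcf7 and Lef1, the nuclear partners of beta-catenin, rose from 1.38 and 0.871 to 3.04 and 2.01 CPM and from 2.99 and 2.89 to 3.96 and 5.59 CPM. Id1 and Id3, targets of BMP signalling, rose by log2 0.34 ± 0.073 and 0.30 ± 0.067, and neither was called with the offset for transcript length. Bmp4 and Wisp2 were the other 2. Without fl replicate 2, 1 of the 29 was called, and without the others 3 or 4 were; without AF10-deleted replicate 2, 1 was also called lower.

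Many lists chosen for this comparison held few calls in number. Over all genes tested 3.37% were called higher and 3.37% lower, and some of these lists lay above that share. Of 32 genes of proliferation and DNA replication, 1 was called lower and none higher (median log2 -0.08), of 26 genes of p53 and its targets, 3 higher and 1 lower, of 42 Hox, Meis and Pbx genes, 1 higher and 2 lower, and of 28 genes that make cholesterol and fatty acids, 2 and 2. Among the few were Hoxd12, which fell from 7.47 and 9.44 to 4.95 and 5.14 CPM (log2 -0.75 ± 0.15), and Cdk6, which fell from 6.72 and 7.43 to 4.62 and 4.08 CPM (log2 -0.71 ± 0.17). Both calls were lost without replicate 2 of either group. Interferon response genes were no exception on day 4: of 38, Oas2 and Bst2 were called higher and Ifit2 lower (median log2 -0.05), and none of the 3 was called in all 4 fits without 1 library. In MEFs 31 of these 38 were called lower (median log2 -0.56), where 0.84% of all genes tested were called lower and 0.122% higher. The deletion effect differed between the stages for Oas2 (log2 1.31 ± 0.18, adjusted p = 0.000181, edgeR) and Bst2 (0.87 ± 0.099, adjusted p = 1.81e-05). The metallothionein genes Mt1 and Mt2, which bind zinc and cadmium, rose on day 4, by log2 0.54 ± 0.086 and 0.56 ± 0.095, and neither was called without fl replicate 2. In MEFs Mt1 had a log2 change of 2.40 ± 0.091.

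Direction moved with transcript length. The median length of the transcripts was 2120 bases for genes called higher, 4735 for genes called lower and 2837 for all genes tested, and 15.1%, 66.2% and 28.3% of them were at least 4000 bases long. Below 1000 bases, 8.99% of 945 genes were called higher and 0.106% lower, while from 8000 bases on 1.25% of 560 were called higher and 13.9% lower. The median log2 change ran from 0.13 in the shortest class to -0.12 in the longest, and this order was present in both pairs. In MEFs and under SGC0946 the medians of the classes lay between -0.031 and 0.042. GC content of the transcripts moved too, with a median of 52.3% for genes called higher, 46.9% for genes called lower and 50.5% for all genes. With an offset for the trend with length in each library, 374 genes were called higher, of which 321 were among the 469, and 206 lower, of which 194 were among the 470. The median lengths were then 2935 and 3435 bases. With that offset the lists read as follows: 10 of 24 immediate early genes, 8 of 29 chemokine and NF-kappaB genes, 6 of 14 acute phase genes and 4 of 16 epithelial genes were still called higher, and 3 of 24 mesenchymal regulators and 3 of 4 reprogramming factors lower. All 40 genes with the lowest p stayed called, and of the 141 called genes that the rule named, 106 did. Some falls in long transcripts became smaller: Hmcn1 (18314 bases) went from log2 -0.48 to -0.33 and Tln2 (12134 bases) from -0.43 to -0.29. Odz4 (10633 bases) went from -0.55 to -0.42. The falls of Nfix (2778 bases) and Tes (2442 bases) hardly changed, at -0.55 and -0.60 with the offset. Ribosomal protein genes, whose transcripts are short, had 10 of 79 called higher without the offset (median log2 0.14) and 2 with it (median 0.03). The 2 respiratory chain genes called higher, Cox7c and Cox6c, were not called with it. What part RNA quality or library preparation had in this trend was not tested. The deposited tables of the 2 AF10-deleted DMSO libraries also differ in format from the other 10, so a difference in how these files were made and the deletion cannot be told apart, for the trend or for the single genes.

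**Figure D4:**
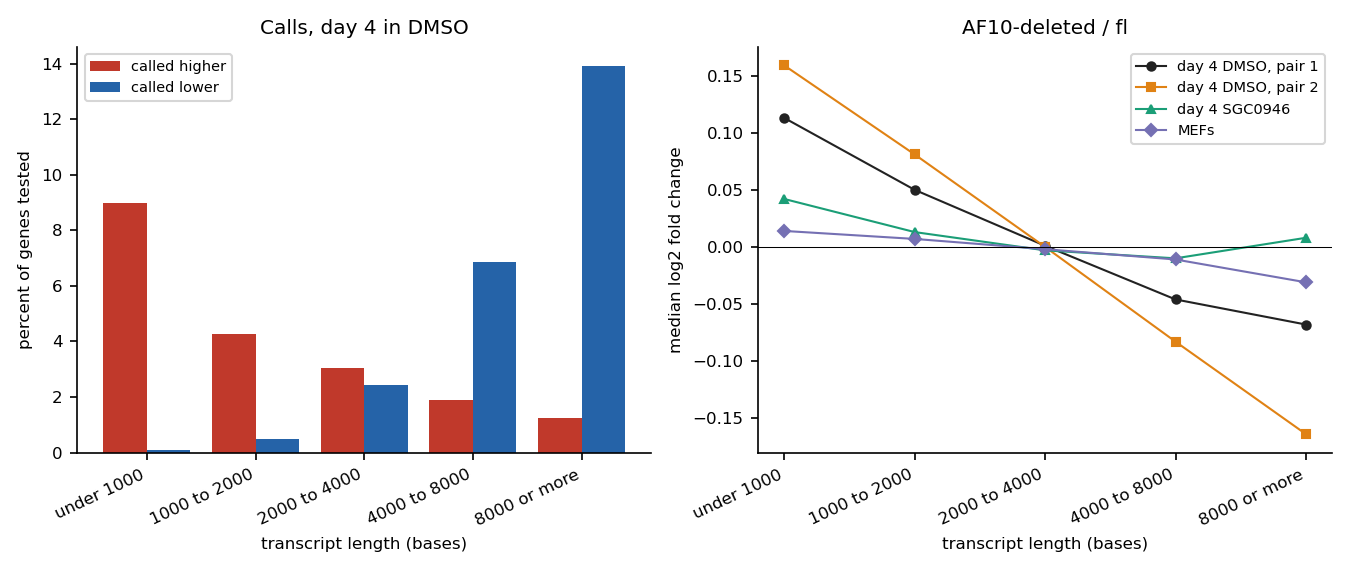
The left panel gives the percent of genes tested that were called higher (red) or lower (blue) on day 4 in DMSO, by transcript length in bases. The right panel gives the median log2 fold change, AF10-deleted over fl, in the same classes for each replicate pair on day 4 in DMSO, for day 4 in SGC0946 and for MEFs: both DMSO pairs run from above 0 to below 0 with length, and the other 2 comparisons stay within 0.05 of 0.

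The same deletion gave fewer calls in the other 2 settings. In MEFs 17 genes were called higher (0.122%) and 117 lower (0.84%), and on day 4 in SGC0946 10 higher (0.0718%) and 14 lower (0.1%). None of the libraries is shared between these comparisons. Of the 469 genes called higher in DMSO, 330 had a positive change in SGC0946, with a median log2 of 0.08, and 272 in MEFs, with a median of 0.03. Of the 470 called lower, 95 had a positive change in SGC0946, with a median of -0.07, and 159 in MEFs, with a median of -0.03. Over all genes 50.1% had a positive change in SGC0946 and 48.6% in MEFs. The genes called higher in both DMSO and SGC0946 were 4, or 0.853% of the DMSO and 40% of the SGC0946 calls, and those called lower in both were 5, or 1.06% and 35.7%. For MEFs the shared calls were 6 higher (1.28% and 35.3%) and 5 lower (1.06% and 4.27%).

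The difference between the settings was tested for each gene. The effect of the deletion differed between day 4 in DMSO and MEFs for 161 genes (1.16% of those tested), of which 83 were among the genes called higher in DMSO and 27 among those called lower. It differed between DMSO and SGC0946 on day 4 for 55 genes (0.395%), of which 42 were among the genes called higher and 8 among those called lower. Both differences contain the DMSO change itself, so these overlaps with the DMSO calls are not independent of those calls. Neither difference was tested with the offset for transcript length. Without the replicate term 0 genes passed either test, and without fl replicate 2 the counts were 27 and 12. Cdh1 was 0.71 ± 0.11 in DMSO and 0.02 ± 0.098 in SGC0946 (log2; adjusted p of the difference 0.031, edgeR). Spp1 was 0.61 ± 0.071 in DMSO, 0.12 ± 0.071 in SGC0946 and -0.16 ± 0.073 in MEFs, and both differences passed the test (adjusted p = 0.0177 and 0.000154). Ier5 was 0.63 ± 0.078, -0.13 ± 0.076 and -0.17 ± 0.076 in the same order, and Mmp3 0.64 ± 0.077, 0.06 ± 0.076 and 0.16 ± 0.092, again with both differences called. Fos, at 0.74 ± 0.086, 0.38 ± 0.086 and 0.01 ± 0.081, differed from MEFs (adjusted p = 0.00153), and its difference from SGC0946 did not pass the test (adjusted p = 0.219). For Nfix the difference from MEFs passed (adjusted p = 0.00556) and that from SGC0946 did not (log2 -0.43 ± 0.11, adjusted p = 0.0699).

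**Figure D5:**
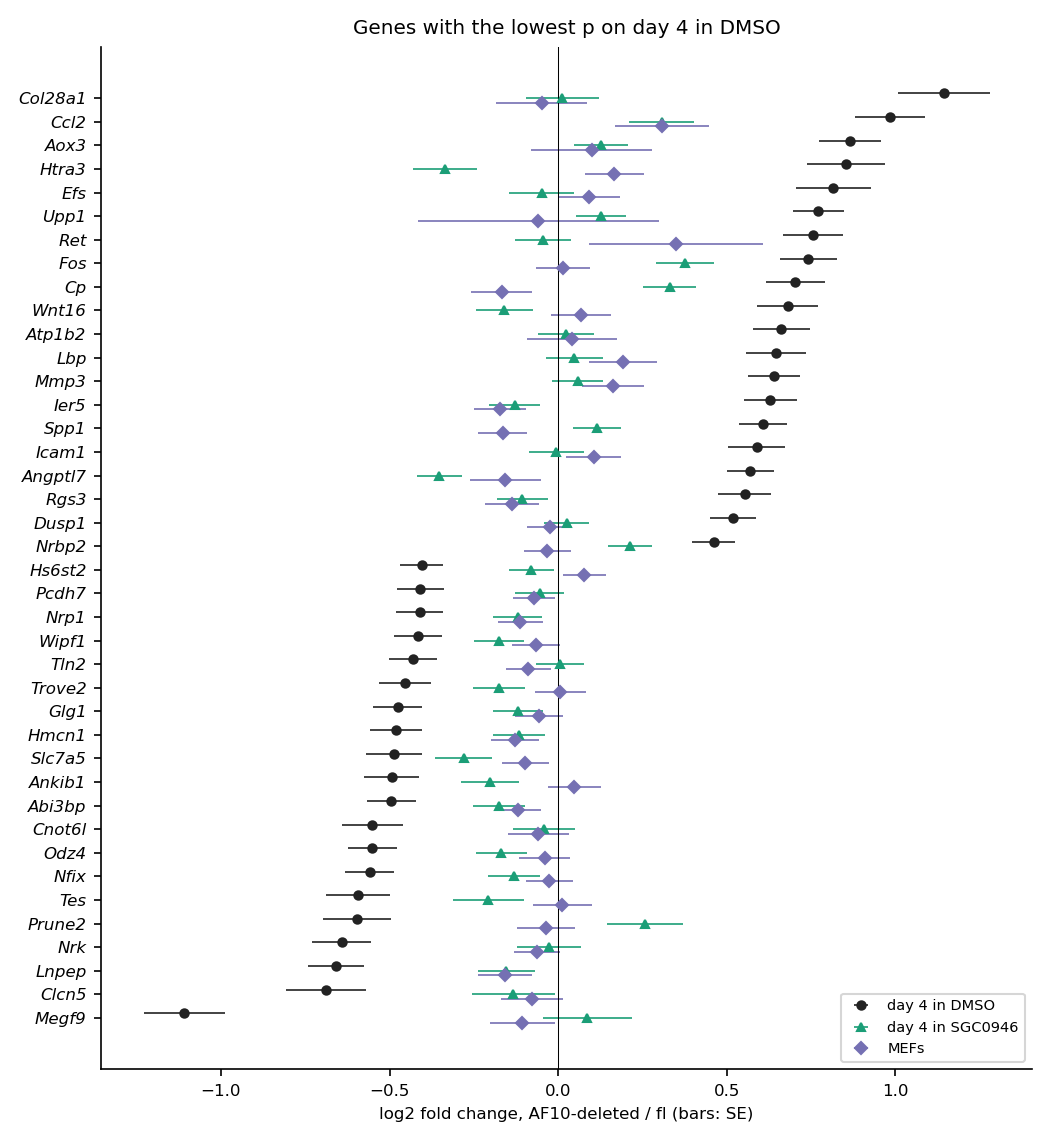
Log2 fold change, AF10-deleted over fl, with its SE, for the 40 genes with the lowest p on day 4 in DMSO, 20 in each direction, in 3 settings: day 4 in DMSO, day 4 in SGC0946 and MEFs. The DMSO values chose the genes and lie farther from 0 than both other values for each of the 40.

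Markers of other cell types were read in the same 4 libraries, and their part in the results above was not tested. The shares to set beside their calls are 3.37% of all genes tested called higher and 3.37% lower. Sums here run over all genes of a list with deposited counts, including those that did not pass the filter. The summed level of 19 macrophage and blood genes was 78.3 and 88.7 CPM in fl and 60.0 and 88.7 CPM in AF10-deleted cells. Of the 16 tested, 1 was called, Emr1, lower. The 9 endothelial genes had sums of 97.9 and 121 CPM in fl and 92.5 and 115 CPM in AF10-deleted cells, with none of the 4 tested called. The 13 muscle genes summed to under 7 CPM in each library, and of the 8 tested Tnnt1 was called higher (not without replicate 2 of either group). Of 15 neural genes, Bex1 and Stmn2 were called higher and none lower, with 9 positive and 6 negative changes. Bex1 rose from 3.73 and 2.93 to 7.86 and 6.37 CPM (log2 1.10 ± 0.17), and its change stayed between 0.957 and 1.219 without any 1 library. That of Stmn2 lay between 0.185 and 0.452 in those fits, and Stmn2 was not called with the offset for transcript length.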

How the data were processed

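RNA sequencing libraries of 12 samples in 6 groups were analysed, of which the 4 day 4 DMSO libraries form the comparison described here. Libraries were made from polyadenylated RNA with a TruSeq RNA V2 kit, per the labels' protocols, and reads were assigned with RSEM and Bowtie on mouse build mm9, per the submitters' processing notes; versions are not given there. Per the file headers, the deposited tables hold RSEM expected counts for 20325 genes, with TPM and FPKM values that the authors' RSEM run made from the same counts. Strand handling and options are not given in the sources used here. RSEM divides reads that match several genes, so genes with near-identical copies are uncertain. Tables were joined by transcript identifiers, since in 10 files 25 gene names have become dates and the 2 Day4_creAF10_DMSO files hold none. No coordinates are given for mm9; promoter windows come from RefSeq, GRCm38.p6, and 13813 of the 13936 genes had a GC content from RefSeq tables.

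Expected counts were rounded, filtered with edgeR's filterByExpr (13936 genes kept) and scaled by TMM. One edgeR 4.0.16 fit in R 4.3.3 held the 12 libraries, a term for each group and the replicate number within each stage, with the robust quasi-likelihood F test and Benjamini-Hochberg adjustment over all genes kept. A gene is called at an adjusted p under 0.05. Standard errors (SE) were taken as the absolute log2 change over the square root of F. CPM values use the TMM-scaled library sizes, and pair differences use a prior count of 1. The biological coefficient of variation was 0.0549, with 4 residual and a median of 22.4 prior degrees of freedom. The replicate number was taken as a pairing because deviations of same-numbered libraries from their group means correlated across genes at 0.27 to 0.698 over the 15 pairs of groups, at 0.377 to 0.495 within day 4, and because Y-linked counts part the numbers. Total counts per library were 14602536 to 22800753. The fit was run on simulated data with known changes. The simulation had a replicate effect built in for each stage and the same spread for all genes, so it cannot test the choice of replicate term.

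Alternatives were no replicate term, a common one, fewer libraries, RLE scaling, DESeq2 1.42.0, other filters, each library left out, and, added after the data were seen, offsets by lowess (span 0.3) for transcript length and GC content. Genes named are Mllt10, Megf9, Spp1 and Cdh1, the 20 of lowest p in each direction with the same sign in both pairs and a mean of at least 1 CPM, up to 6 called members of each list by p, and the 5 largest changes in each direction. Names such as Gm or Rik with a number, and Rpl or Rps, were only counted (33 called higher, 10 lower). Some called genes enter the counts but are not reported here by name. Other genes named were chosen after their values were seen. The comparison, its genes and the lists were chosen with earlier results of these data known.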

Additional observations from a re-analysis of the deposited data

Results flagged for a closer look

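The effect of AF10 deletion on day 4 in DMSO was compared gene by gene with its effect in MEFs and in SGC0946, by a test of the difference itself (edgeR quasi-likelihood test, Benjamini-Hochberg, paired fit). It differed from MEFs for 161 genes and from SGC0946 for 55. The values below are log2 differences, day 4 in DMSO minus the other setting, for named genes that passed. Groups of 2 libraries are too small for a check of single libraries that stand apart.

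Against MEFs, genes that were lower on day 4 gave -1.002 for Megf9, -0.61 for Clcn5, -0.61 for Tes, -0.58 for Nrk and -0.56 for Prune2. Further values on this side were -0.54 for Ankib1, -0.53 for Nfix, -0.51 for Odz4, -0.50 for Lnpep, -0.48 for Hs6st2, -0.46 for Trove2 and -0.42 for Glg1. Among immediate early genes and their feedback phosphatase, the difference was 0.80 for Ier5, 0.73 for Fos, 0.57 for Junb, 0.57 for Arc and 0.54 for Dusp1. Inflammatory and acute phase genes gave 0.87 for Cp, 0.60 for Ccl7, 0.52 for Ptx3, 0.48 for Icam1 and 0.45 for Nfkbia. Secreted and matrix genes gave 1.19 for Col28a1, 0.77 for Spp1, 0.73 for Angptl7, 0.69 for Htra3, 0.61 for Wnt16, 0.60 for Plau and 0.48 for Mmp3. The remaining positive values were 0.78 for Fabp4, 0.72 for Efs, 0.69 for Rgs3, 0.63 for S100a4, 0.62 for Atp1b2, 0.60 for Id1, 0.58 for Hes1, 0.50 for Id3 and 0.49 for Nrbp2, together with 1.19 for Trib3, which had under 2 CPM in each of the 4 libraries. For Oas2 (1.31) and Bst2 (0.87), interferon response genes, and for Mt1 (-1.86), the MEF effect was the larger of the 2 in size, at log2 -0.75 ± 0.12, -0.61 ± 0.067 and 2.40 ± 0.091.

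Against SGC0946, the epithelial genes gave 0.95 for Spint1 and 0.69 for Cdh1. Inflammatory and acute phase genes gave 1.38 for Hp, 1.10 for Lcn2, 0.73 for Ptx3, 0.68 for Ccl2, 0.60 for Lbp and 0.59 for Icam1. Of the immediate early list Ier5 (0.76) passed, and Dusp1 gave 0.49. That list also lay above 0 in SGC0946 itself, where 19 of its 24 changes were positive (median log2 0.22), against 50.1% of all genes. There 2 of the 24 were called higher, against 0.0718% of all genes. Secreted and matrix genes gave 1.19 for Htra3, 1.13 for Col28a1, 0.92 for Angptl7, 0.84 for Wnt16, 0.58 for Mmp3 and 0.49 for Spp1. The other positive values were 1.21 for Bex1, 0.86 for Efs, 0.80 for Ret, 0.74 for Aox3, 0.66 for Rgs3, 0.64 for Upp1 and 0.64 for Atp1b2. Negative values were -1.19 for Megf9, -0.85 for Prune2, -0.62 for Nrk and -0.44 for Tln2, and -2.36 for Adh1, which had under 2 CPM in each of the 4 DMSO libraries. Rangrf gave -19.04, a fitted value that rests on 2 libraries: it had 8.94 CPM in Day4_fl_DMSO replicate 2, 11.8 CPM in Day4_creAF10_SGC replicate 2 and 0 in the other 6 day 4 libraries.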

How the results depend on the processing

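The replicate block decides the counts. Without it 0 genes were called higher and 0 lower, and 0 passed either test of a difference, and with one block for both stages the counts were 0 higher, 1 lower, 0 different from MEFs and 1 different from SGC0946. With only the 4 libraries and the same pairing, 816 were called higher and 762 lower, and with the 8 day 4 libraries 454 and 387. DESeq2 with the block called 172 higher, 214 lower and 68 different from MEFs. Without a filter on low counts, 327 genes differed from MEFs and 134 from SGC0946. When each of the 4 libraries was left out in turn, 79 to 282 genes were called higher, 45 to 308 lower, 27 to 171 different from MEFs and 12 to 63 different from SGC0946, and the lowest value of each came without fl replicate 2. A group with 1 library is then assumed to vary like the others. The offset for transcript length left 206 genes called lower. The other counts of genes called higher or lower under the offsets, RLE scaling and the filters were within 1.5 times the paired ones. Under RLE scaling and the stricter filter, 159 and 157 genes differed from MEFs and 54 and 57 from SGC0946. The differences from MEFs and from SGC0946 were not tested with the offsets. Of the 141 named genes called, 49 stayed called without any 1 library and 23 in none of those 4 fits. The genes that changed sign, neither of them called, were Tek (log2 0.001 without fl replicate 1, down to -0.194 without fl replicate 2) and Eif2s3y (-0.036 without AF10-deleted replicate 1, up to 0.199 without AF10-deleted replicate 2). The median SE of the log2 change was 0.535 for the 1350 genes below a mean of 1 CPM, of which 12 were called, and 0.089 for genes from 10 to 100 CPM.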

Other observations

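Other gene groups held calls in one or both directions, where 3.37% of all genes tested were called higher and 3.37% lower. Of 19 genes of cartilage and bone, Spp1, Col9a2 and Col11a2 were called higher and Col11a1 lower. Col9a2, a cartilage collagen gene, rose from 1.67 and 1.60 to 2.64 and 3.07 CPM (log2 0.81 ± 0.24), while Col11a1 fell from 217 and 265 to 174 and 207 CPM (log2 -0.34 ± 0.078). Col9a2 and Col11a2 were called in 0 of the 4 fits without 1 library, and Col11a1 was not called with the offset for transcript length. Of 24 contractile and TGF-beta response genes, Cyr61, Tgfb1 and Ctgf were called higher and Cald1 and Tgfbr1 lower. Cyr61, a matricellular gene that responds to serum, rose from 430.4 and 1031 to 751 and 1301 CPM (log2 0.57 ± 0.096) and was called without any 1 library, with groups that overlapped. Tgfb1, Ctgf and Tgfbr1 were called in 0 of the 4 fits without 1 library, Cald1 not without replicate 2 of either group, and Tgfbr1 not with the offset for transcript length. Of 10 adipocyte genes, Fabp4, Fabp5 and Cebpd were called higher. Fabp4, a fatty acid carrier, rose from 10.7 and 11.6 to 14.5 and 20.4 CPM (log2 0.65 ± 0.13), and was not called without replicate 2 of either group, while Fabp5 and Cebpd were each called in 1 of those 4 fits. Of 20 genes of the unfolded protein and stress response, Hspb1, Ppp1r15a and Trib3 were called higher and none lower. Hspb1, a small heat shock protein, rose from 38.1 and 28.1 to 47.1 and 51.8 CPM (log2 0.60 ± 0.12), and was not called without replicate 2 of either group, and Ppp1r15a and Trib3 were called in 0 of the 4 fits.

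Of 15 G1 cyclins and CDK inhibitors, Cdk6, Cdkn1b and Ccnd2 were called lower and none higher. Ccnd2, a D-type cyclin, fell from 1187 and 1450.5 to 1033 and 1175 CPM (log2 -0.25 ± 0.073), and Cdkn1b, which encodes the inhibitor p27, from 91.7 and 89.4 to 79.95 and 64.0 CPM (log2 -0.34 ± 0.088). Each of these 2 was called in 1 of the 4 fits without 1 library, and Ccnd2 was not called with the offset for transcript length (adjusted p = 0.181, edgeR). Of 16 genes of the IGF system, Igfbp5, Igf2bp1 and Igf1r were called lower and Igfbp6 higher, and none of these 4 was called with the offset for transcript length. Of 21 genes of lysosomes and endosomes, Lnpep and Clcn5 were called lower. By family, 6 of 41 collagen genes were called higher and 2 lower, 5 of 20 Cxcl or Ccl genes higher and none lower, 9 and 9 of 245 Slc genes, and 2 and 3 of 343 Zfp genes.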
